A study of Oryctolagus cuniculus with 4 samples.

Results

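The trophectoderm is the outer epithelium of the blastocyst and gives rise to the placenta. The regulators CDX2, GATA2, GATA3, TFAP2A, TFAP2C, TEAD4, EOMES and HAND1 and the keratins KRT8 and KRT18 were followed as a group of 10 genes, listed by name. Of these, 7 genes had a probe on the array, among 10374 genes that could be named on it, and were read by 8 probes. CDX2, TEAD4 and EOMES were not analysed here. The samples were blastocysts of New Zealand White rabbits at 6 days. Parthenotes came from oocytes activated by electrical pulses followed by cycloheximide and 6-DMAP, and they then developed in the oviduct and uterus of recipient does. The controls were untreated in vivo fertilised embryos, flushed from the uterus of inseminated does at the same age. Each group had 4 independent pools of several embryos, and each of the 4 arrays carried 1 parthenote pool in Cy3 and 1 fertilised pool in Cy5. The dyes were never exchanged, so that dye and group cannot be told apart. A parthenote embryo also has no paternal genome, no sperm, an activation treatment, handling outside the doe and transfer to a recipient at once.

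In the mammalian blastocyst, TEAD4, working with the Hippo pathway coactivators YAP1 and WWTR1, switches on CDX2 and GATA3 in outer cells. GATA2, GATA3, TFAP2A and TFAP2C are DNA-binding factors of the trophoblast lineage, CDX2 and EOMES maintain trophoblast stem cells, and HAND1 is needed for giant cells. KRT8 (type II) and KRT18 (type I) pair to form the intermediate filaments of simple epithelia and are classical markers of trophectoderm. They are not restricted to it, since the epithelia of oviduct and uterus also contain them.

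The probes behind the results that passed the test are printed here as designed on the array, 5′ to 3′, together with the GATA3 probe as that of a related factor. In the pair of GATA2 probes, capitals mark the 55 bases that both share, so that they are almost the same measurement and not independent evidence. The other probes are in lower case because no stretch is singled out.
GATA2 probe A_04_P014276: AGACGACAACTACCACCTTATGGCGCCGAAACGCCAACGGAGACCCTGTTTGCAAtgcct
GATA2 probe A_04_P003631: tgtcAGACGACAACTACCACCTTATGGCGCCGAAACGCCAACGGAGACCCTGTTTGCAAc
GATA3 probe A_04_P070947: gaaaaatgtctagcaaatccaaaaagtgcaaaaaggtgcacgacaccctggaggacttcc
KRT8 probe A_04_P039607: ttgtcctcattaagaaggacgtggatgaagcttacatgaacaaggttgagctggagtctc
KRT18 probe A_04_P014251: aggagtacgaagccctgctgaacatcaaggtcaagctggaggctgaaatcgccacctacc

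The array files place the GATA2 probes at chr9:7432536-7432595 and chr9:7432540-7432599 on the minus strand and the GATA3 probe at chr16:12463688-12463747 on the plus strand, without naming the genome build. KRT8 lies at chr4:36816147-36816571 on the minus strand, a span of 425 bases for a probe of 60 bases, which the probe can cover only with a gap. KRT18 lies near it at chr4:36853905-36853964 on the plus strand. TFAP2A was placed at chr12:4123118-4124846 on the minus strand, again over a longer span (1729 bases), and HAND1 at chr3:35920087-35920146 on the minus strand. No position was given for TFAP2C. The GATA2 and GATA3 probes shared a run of at most 6 bases, the TFAP2A and TFAP2C probes 6 bases, and the KRT8 and KRT18 probes 8 bases, so that the paralogues were read by different sequences. No probe of these genes shared more than 13 bases with a named probe of another gene. Names carried some uncertainty. The array describes the transcript of both GATA2 probes as uterine GATA-4, while RefSeq assigns that record to GATA2, and GATA4 has a probe of its own. KRT18 was named from the description cytokeratin 18 alone.

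On every array, all 8 probes stood well above background in either channel, and none was saturated. With the deposited log ratios KRT8 and KRT18 were higher in parthenotes (though below 0 with median centring alone, as given under each), GATA2 was lower, and the other regulators did not pass the test. In numbers, 2 of the 7 genes (KRT8 and KRT18) rose and 1 (GATA2) fell at an adjusted p under 0.05, against 9.53% and 11.1% of all probes tested, and 4 did not pass. Over both directions 20.6% of all probes passed, as did 23.9% of the named genes by their brightest probe and 29.5% of the probes that were well above background in every pool. The signals of the pools, which were not scaled between arrays, did not overlap between the groups for 3 of the 7 genes, against 34.8% of all probes and 31.1% of those well above background in every pool. The median log2 ratio of parthenote over fertilised was -0.17 over the 7 genes and 0 over all probes tested. With so few genes, these counts say little beyond each gene itself. The ratios come from whole blastocysts, in which fewer cells of a type and less RNA per cell cannot be told apart.

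**Figure D1:**
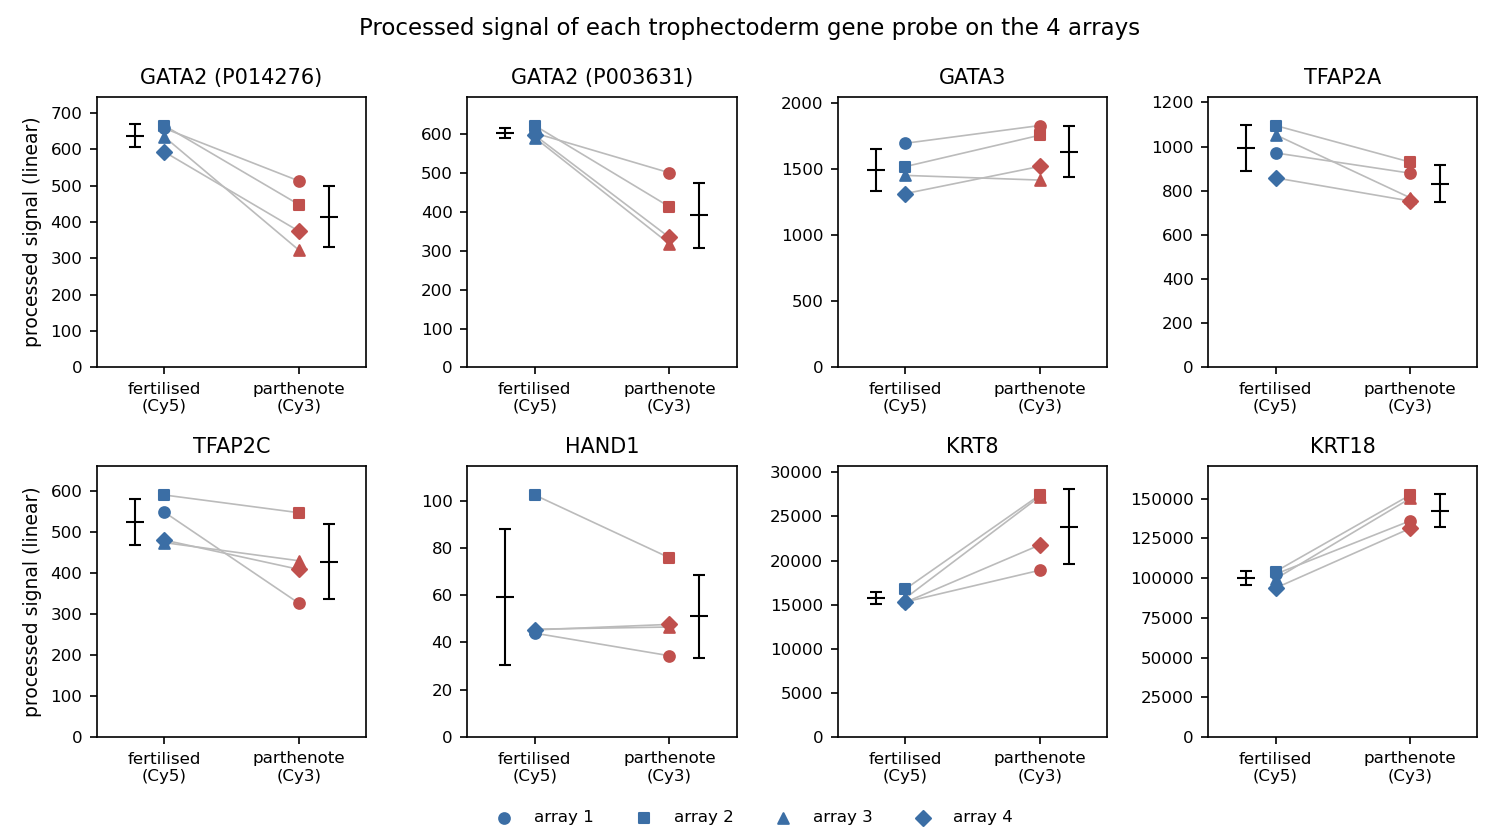
Processed signal (linear, arbitrary units, not scaled between arrays) of each probe in the fertilised (blue, Cy5) and parthenote (red, Cy3) pools; symbols are arrays, grey lines join the channels of an array, and black bars are the mean ± SD (n = 4). The groups do not overlap for KRT8, KRT18 and both GATA2 probes (labelled by the end of their names), and they overlap for GATA3, TFAP2A, TFAP2C and HAND1.

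KRT18 gave the most even difference of these genes. Its processed signal on arrays 1 to 4 was 136124, 152398, 150274 and 131371 in parthenotes and 102547, 104181, 99608 and 93775 in fertilised embryos. Every parthenote pool was above every fertilised pool. The log2 ratios were 0.41, 0.55, 0.59 and 0.49, with a mean of 0.51 ± 0.08 (SD, n = 4; 95% interval 0.40 to 0.62), or 1.42-fold (limma, adjusted p = 0.0115).

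KRT8, the filament partner of KRT18, rose by a similar amount with a wider spread. Its signal on arrays 1 to 4 was 18902, 27439, 27264 and 21770 in parthenotes and 15305, 16755, 15718 and 15260 in fertilised embryos. The groups did not overlap, and the parthenote pools varied more (coefficient of variation 17.7%) than the fertilised pools (4.41%). The log2 ratios were 0.30, 0.71, 0.79 and 0.51, with a mean of 0.58 ± 0.22 (SD, n = 4; 95% interval 0.28 to 0.88), or 1.496-fold (limma, adjusted p = 0.0408).

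The direction of both keratins rests on a correction of the dyes that depends on brightness. With background correction and centring of each array on its median alone, the mean log2 ratio turned to -0.79 for KRT18 and to -0.21 for KRT8. Under that setting bright probes were shifted as a whole: the median log2 ratio was -1.27 over the 398 probes as bright as KRT18 (log2 signal of 16 to 17) and -0.79 over the 572 probes as bright as KRT8 (14 to 15). Both keratins thus lay above the probes of their own brightness. With the deposited log ratios the same probes had medians of -0.03 and 0.03. Loess on background-corrected signals gave 0.30 for KRT18 and 0.65 for KRT8. The call of KRT18 was lost without replicate 2 or without replicate 4 (adjusted p = 0.0614 and 0.0716, within a range of 2.7e-08 to 0.0716 over 14 alternatives). The lowest of these values came from median centring, where KRT18 passed as lower in parthenotes. The call of KRT8 was lost without replicate 2, 3 or 4 (adjusted p = 0.146, 0.121 and 0.149, within a range of 0.0011 to 0.149). It was also lost with the methods' t-test (adjusted p = 0.0746) and with an intensity trend in limma (adjusted p = 0.0502). With median centring KRT8 did not pass in the turned direction (limma, adjusted p = 0.0706).

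Among the regulators, GATA2, a zinc-finger factor of trophoblast and of the uterus, was lower in parthenotes. The brighter of its probes, A_04_P014276, read 513, 448, 323 and 375 in the parthenote pools of arrays 1 to 4 and 658, 666, 635 and 593 in the fertilised pools. All fertilised pools were above all parthenote pools, and the parthenote pools varied more (20.1%) than the fertilised pools (5.10%). The log2 ratios were -0.36, -0.57, -0.98 and -0.66, with a mean of -0.64 ± 0.26 (SD, n = 4; 95% interval -0.99 to -0.29), so that the level was 1.56-fold lower (limma, adjusted p = 0.0451).

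The second GATA2 probe, A_04_P003631, gave nearly the same values, as its sequence implies. It read 318 to 501 in parthenotes and 591 to 622 in fertilised embryos, with a mean log2 ratio of -0.65 ± 0.29 (SD, n = 4), and stood just outside the threshold (limma, adjusted p = 0.0538). Without replicate 1 this probe passed (adjusted p = 0.0481, within a range of 4.5e-09 to 0.187 over 14 alternatives). The direction of GATA2 was the same under every processing tried, but its call was lost without any 1 of the 4 replicates (adjusted p = 0.0673, 0.148, 0.0875 and 0.171 without replicates 1 to 4, within a range of 4.6e-09 to 0.171). The call of the brighter probe was also lost with the methods' t-test (adjusted p = 0.0804) and with an intensity trend in limma (adjusted p = 0.0549). The probe of GATA4, the gene named in the array's description, read a log2 ratio of -0.34 (limma, adjusted p = 0.0903, 95% interval -0.60 to -0.07). It did not pass, and read -0.12 with loess on background-corrected signals. Its value cannot settle which gene the GATA2 probes read.

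GATA3, a direct TEAD4 target that acts beside CDX2, did not pass the test. Its signal was 1417 to 1829 in parthenotes and 1314 to 1695 in fertilised embryos, and the groups overlapped. The log2 ratios were 0.11, 0.21, -0.04 and 0.21, with a mean of 0.12 ± 0.12 (SD, n = 4; 95% interval -0.04 to 0.28; limma, adjusted p = 0.214). The interval leaves out a rise or a fall as large as those of KRT18 and GATA2. With median centring alone GATA3 passed as lower in parthenotes, with a mean of -0.48 (limma, adjusted p = 9.3e-05). The 2406 probes of its brightness (log2 signal of 10 to 11) then had a median of -0.58. GATA2 and GATA3 thus had means of opposite sign with the deposited log ratios, while their difference was not tested.

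TFAP2A and TFAP2C encode AP-2 factors that act together in trophoblast, and TFAP2C is the one required for a working trophectoderm. TFAP2A was below the fertilised pool on each of the 4 arrays (879, 930, 768 and 753 against 971, 1095, 1053 and 858), although the groups overlapped. Its mean log2 ratio was -0.26 ± 0.14 (SD, n = 4; 95% interval -0.45 to -0.07), which did not pass with the deposited log ratios (limma, adjusted p = 0.0788). It passed when dim probes were left out before the test (adjusted p = 0.0362) and with loess on background-corrected signals (adjusted p = 0.0455, within a range of 8.2e-08 to 0.218 over 14 alternatives).

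TFAP2C was also below its fertilised pool on all 4 arrays (326, 547, 430 and 409 against 548, 590, 474 and 480). Array 1 carried most of the difference, with a log2 ratio of -0.75 against -0.11, -0.14 and -0.23 on arrays 2 to 4. The mean was -0.31 ± 0.30 (SD, n = 4; 95% interval -0.72 to 0.10; limma, adjusted p = 0.224), and -0.16 without replicate 1.

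HAND1, a basic helix-loop-helix factor of trophoblast giant cells and extraembryonic mesoderm, was read near the dim end. Its signal was 34.4, 75.8, 46.5 and 47.6 in parthenotes and 43.9, 102, 45.6 and 45.3 in fertilised embryos, with array 2 high in both channels. The log2 ratios fell on both sides of 0 (-0.35, -0.43, 0.03 and 0.07), with a mean of -0.17 ± 0.26 (SD, n = 4; 95% interval -0.53 to 0.18; limma, adjusted p = 0.415). The sign turned to 0.03 with loess on background-corrected signals and to 0.01 with median centring.

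**Figure D2:**
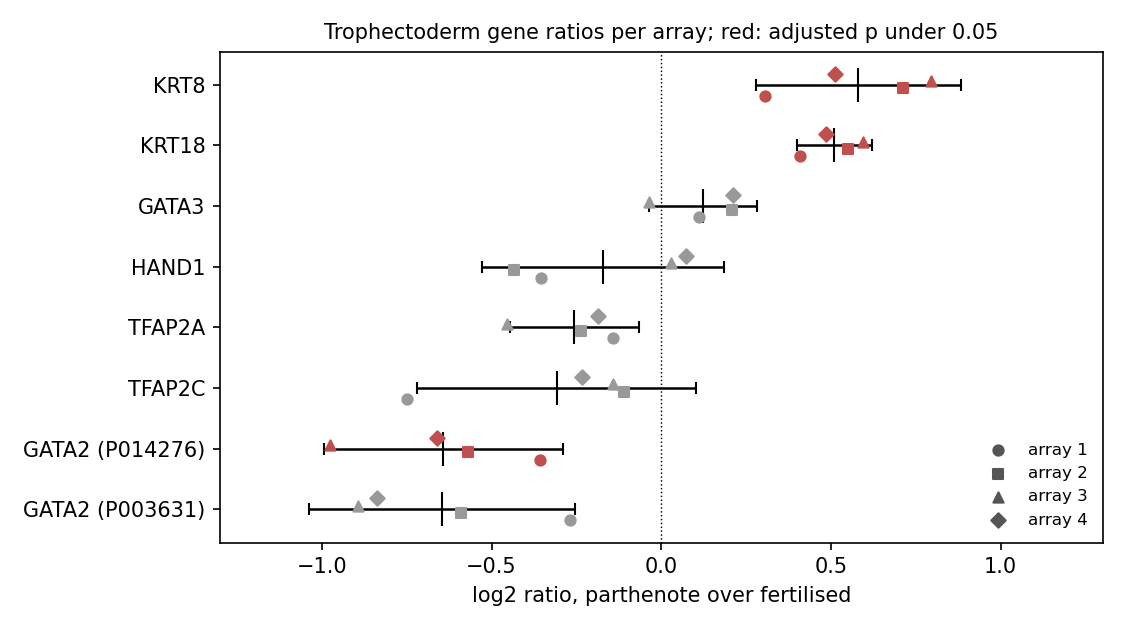
Log2 ratio of parthenote over fertilised (x axis) for each probe (y axis); symbols are the 4 arrays, vertical ticks the mean and bars its 95% interval from limma, with probes at an adjusted p under 0.05 in red. KRT8 and KRT18 lie above 0 and both GATA2 probes below 0 on all 4 arrays, while GATA3 and HAND1 cross 0; with median centring alone the sign of KRT8, KRT18, GATA3 and HAND1 turns.

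The arrays did not weigh alike. Array 1 gave the smallest and array 3 the largest departure from 0 for KRT8, for KRT18 and for the brighter GATA2 probe. Of the 8986 probes that passed the test with a value on every array, 31.4% had their smallest ratio on array 1, 29.1% had their largest on array 3, and 12.2% had both. For TFAP2C it was array 1 that departed most. KRT19, a type I keratin of trophectoderm that was picked out after its values were seen, did the same: its log2 ratios were -0.82, -0.10, -0.34 and -0.22 (mean -0.37; limma, adjusted p = 0.181). Its mean was below 0 and those of KRT8 and KRT18 above 0 with the deposited log ratios, and the difference was not tested.

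**Figure D3:**
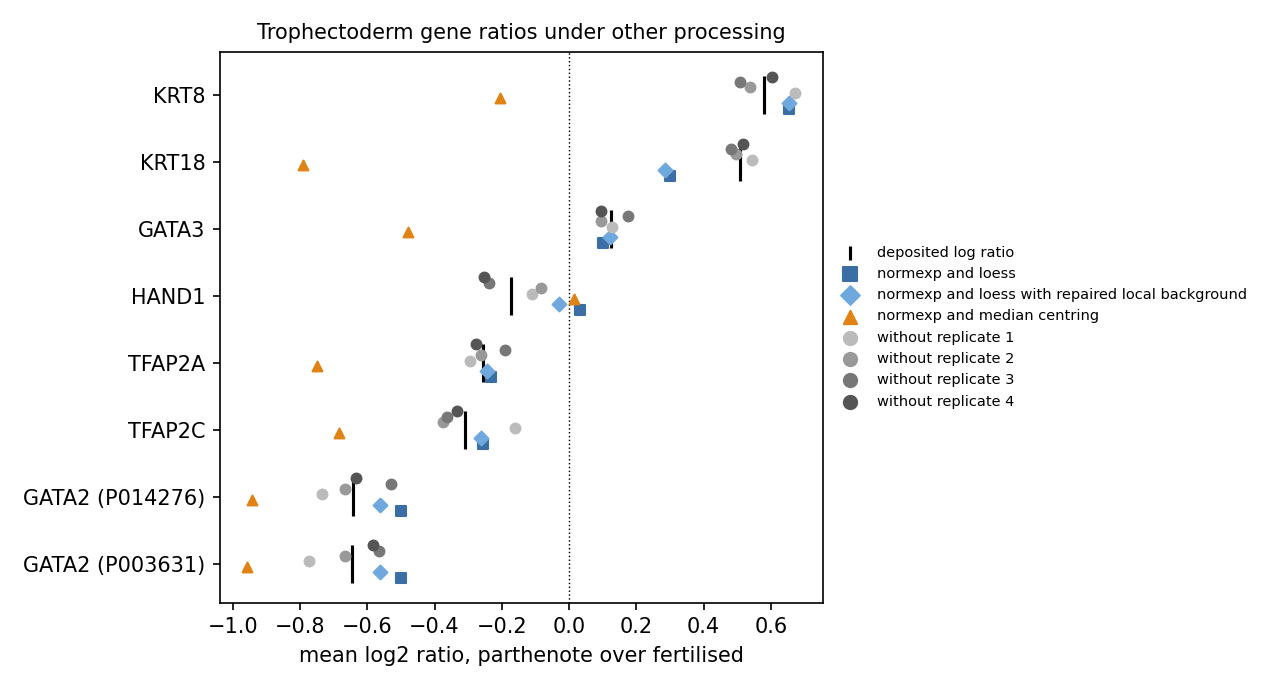
Mean log2 ratio of parthenote over fertilised (x axis) of each probe (y axis) with the deposited log ratio (black tick), after other background correction and scaling (blue and orange) and without each replicate in turn (grey). Median centring alone (orange) takes KRT18 to -0.79, KRT8 to -0.21 and GATA3 to -0.48, whereas both GATA2 probes, TFAP2A and TFAP2C lie below 0 in every setting shown.

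Genes that act around these regulators moved in both directions. Of 18 genes of the Hippo pathway and the TEAD family, 13 were measured, of which 3 rose, 2 fell and 8 did not pass (median log2 ratio 0.05). The falls were those of AMOTL1 and NF2. AMOTL1 (-0.93, limma, adjusted p = 0.0298) encodes an angiomotin that holds YAP1 out of the nucleus, and NF2 (-0.80, limma, adjusted p = 0.0205) activates the Hippo kinases. The call of AMOTL1 was lost with the methods' t-test and without replicate 2, 3 or 4. That of NF2 was lost without replicate 1, 2 or 4. STK3 (0.37), a Hippo kinase, its partner SAV1 (0.29) and TEAD1 (0.22), a relative of TEAD4, rose with the deposited log ratios, and all of them turned below 0 with median centring alone; STK3 also no longer passed with loess on background-corrected signals (0.22). Of 25 other trophoblast genes, 12 were measured, and DLX3, a homeobox factor of the placenta, fell (-0.35; limma, adjusted p = 0.0106) while 11 did not pass (median -0.16). DLX3 no longer passed with loess on background-corrected signals (-0.09), with the same after repair of outlying local backgrounds (-0.13), with median centring (-0.16), without the array block or without replicate 3.

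Among 22 other keratins and desmosomal genes, 10 were measured, of which 3 rose and 7 did not pass (median 0.29). PKP2 (0.34; limma, adjusted p = 0.0225) and JUP (0.19; limma, adjusted p = 0.0378), which link keratin filaments to desmosomes, rose with the deposited log ratios and turned to -0.30 and -0.45 with median centring alone. The call of JUP was also lost without any 1 of the replicates and over the mean of all its probes (0.20; limma, adjusted p = 0.103). The summed signal of the 10 genes was 12820 to 18326 in parthenotes and 16088 to 18534 in fertilised embryos, with overlap. KRT19 alone gave 6918 to 11709 and 10963 to 12953 of these sums. KRT23 was well above background on 1 array in parthenotes and on none in fertilised embryos, and was at least 1.13-fold higher in parthenotes (limma, adjusted p = 0.0190), a call lost with loess on background-corrected signals.

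Of 18 epiblast genes 7 were measured (median -0.04): POU5F1, the pluripotency factor, which rabbit trophectoderm can also retain, rose by the deposited log ratios (0.21; limma, adjusted p = 0.0118) and turned to -0.52 with median centring, and DNMT3B, a DNA methyltransferase, fell (-0.25; limma, adjusted p = 0.0338). The call of DNMT3B was lost with the methods' t-test, without the array block and without replicate 2, 3 or 4. Of 16 primitive endoderm genes 9 were measured (median -0.29), and COL4A1 (0.35), a basement membrane collagen, rose with the deposited log ratios (-0.24 with median centring), while AFP fell. AFP, a yolk sac protein, was not well above background in any parthenote pool. It was at least 1.24-fold lower in parthenotes, a bound not tested itself, and passed with the deposited log ratios (limma, adjusted p = 0.0204). That call was lost with loess on background-corrected signals, with median centring (-0.16) and without any 1 of the replicates. It was also lost over the mean of all AFP probes (-0.98; limma, adjusted p = 0.0636).

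Of the measured markers of the reproductive tract, 9 of 18 rose in parthenotes and none fell. Of 20 genes of motile cilia 10 were measured, and 5 rose and none fell (median 2.14). CAPSL, a cilium-associated gene, passed with the deposited log ratios (limma, adjusted p = 0.0131). It was at least 2.53-fold higher, RSPH1 of the radial spokes at least 1.36-fold and CFAP52 at least 1.46-fold, which are bounds not tested themselves. CFAP43 had a mean log2 ratio of 4.08 with only 1 fertilised pool well above background (1.25 and no longer passing with loess on background-corrected signals). The summed signal of the 10 measured cilia genes was 302 to 903 in parthenotes and 127 to 197 in fertilised embryos. FOXJ1, the master regulator of motile cilia, was not well above background in either group.

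Of 15 secretory and hormone-response genes of oviduct and uterus 8 were measured, and 4 rose and none fell (median 1.36). OVGP1, the oviductal glycoprotein, had a log2 ratio of 3.87 (limma, adjusted p = 0.0051), PIGR 2.90, SCGB1A1 (uteroglobin) 2.75 and the progesterone receptor gene PGR 2.08, the last with only 1 fertilised pool well above background (0.43 and no longer passing with loess on background-corrected signals). The summed signal was 8888 to 33360 in parthenotes and 4649 to 8316 in fertilised embryos, and ESR1 was not well above background. OVGP1 gave 3014 to 19178 of the parthenote sum. WFDC2, which did not pass (log2 ratio 0.01), gave 1577 to 9019 of it and 3591 to 5946 of the fertilised sum. KRT8 and KRT18 are also keratins of such epithelia, and the part of maternal cells or RNA in their rise was not tested. The parthenote pool of array 2 had the highest signals of KRT8 (27439) and KRT18 (152398) and the lowest signals of OVGP1 (3014, against 3677, 19178 and 9412 on arrays 1, 3 and 4) and of SCGB1A1 (2788, against 3296 to 6405). The parthenote pool of array 3 read 27264 for KRT8 and 150274 for KRT18, with the highest OVGP1 (19178) and SCGB1A1 (6405). The fertilised pool of array 2 was also the highest for KRT8 (16755) and KRT18 (104181). By log2 ratio the rise was largest on array 3 (0.79 for KRT8 and 0.59 for KRT18) and smallest on array 1 (0.30 and 0.41). Signals were not scaled between arrays, and no relation between these genes was tested.

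Of 10 stroma and muscle genes TAGLN rose (0.66; -0.02 with median centring), with a summed signal of 3664 to 5074 against 2342 to 3223, of which TAGLN alone gave 3385 to 4656 and 2110 to 2974, and ACTA2, PDGFRB, COL1A1 and MYH11 were not well above background. Of 8 leukocyte genes CD14 (0.92), LCP1 (0.67), CD68 (0.45) and CD3D (0.14; -0.06 with median centring) rose, with a summed signal of 505 to 551 against 340 to 360, while PTPRC and CD3E were not well above background; LCP1 (0.27), CD68 (0.22) and CD3D (0.079) no longer passed with loess on background-corrected signals. Of 4 erythroid genes ALAS2 rose (1.94), with a summed signal of 576 to 778 against 401 to 546.

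**Figure D4:**
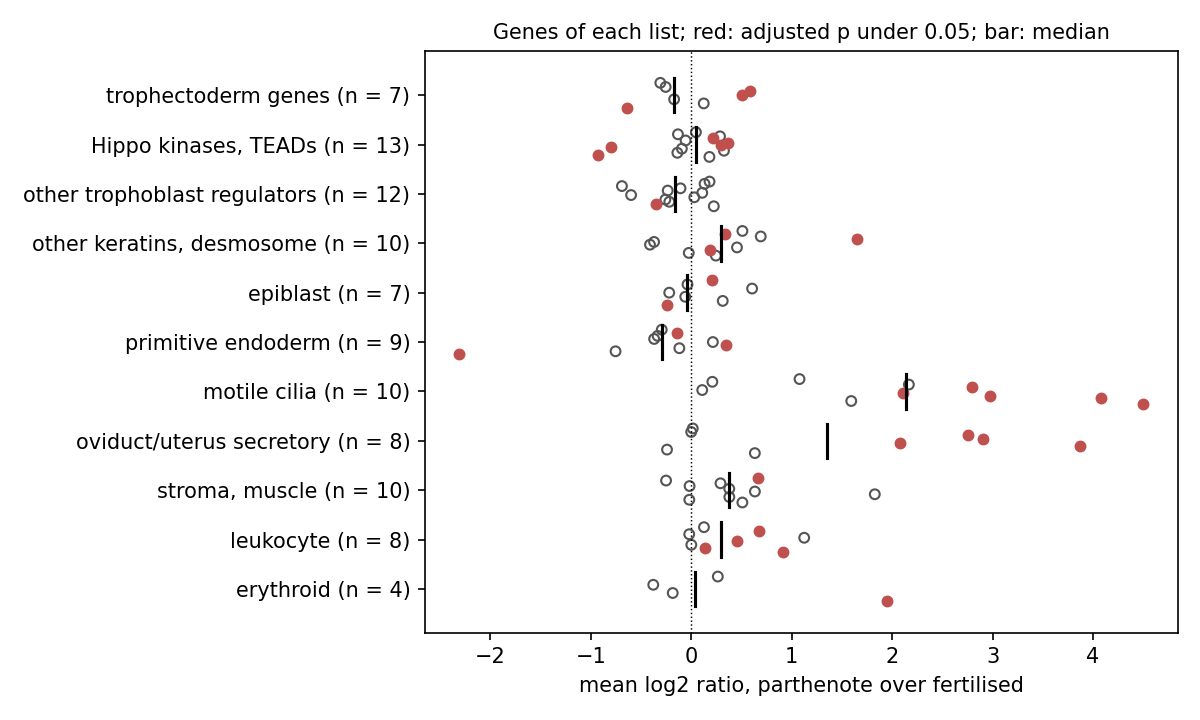
Mean log2 ratio of parthenote over fertilised (x axis) of the measured genes of each list (y axis), with genes at an adjusted p under 0.05 in red and the list median as a black bar. The 7 trophectoderm genes spread from -0.64 to 0.58 around a median of -0.17, and the genes of cilia (median 2.14) and of oviduct and uterus (1.36) lie far to the right; ratios of probes near background are plotted as fitted.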

How the data were processed

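Agilent rabbit 60-mer arrays were scanned and read by the authors with Agilent Feature Extraction 10.10.1.1, which corrected background and dyes. The deposited files hold intensity signals per spot and a log10 ratio of Cy5 over Cy3, here turned into log2 of parthenote over fertilised. Control spots and spots marked as outliers (26 to 48 of 43803 per array) were left out, spots were averaged per probe, and 43595 probes with 3 or more arrays were tested against 0 with limma 3.58.1 in R 4.3.3 (Benjamini-Hochberg over all probes, threshold 0.05); this test was checked on simulated data. All arrays were on 1 slide and 1 scan, and 25805 to 27835 spots per channel were well above background; the number of arrays limits the precision. Array and channel pairing comes from the labels. Names came from the RefSeq table of assembly mOryCun1.1 and the array's descriptions. A gene was represented by its brightest probe. All 10 genes are described; of other lists, the genes passing the test with the largest mean, up to 4 per direction, and fixed defining markers are named, except 1 gene that is not reported here. Where a probe was not well above background in a group, its fold is a bound: the mean of the bright group against, per array, the higher of the probe's own value and the lowest signal well above background, after loess and Aquantile normalization, open to dye bias. The adjusted p given for such a probe is that of its deposited mean log2 ratio, and the bound was not tested. No bound is given for KRT23. The genes and lists were chosen with earlier results of these data known. The deposited value table equals the log10 ratio with its sign turned. Alternatives were normexp (offset 50) with loess, with repaired background or with median centring, raw processed ratios, a dim-probe filter, marked spots kept, the methods' t-test, no array block, an intensity trend and each replicate left out. A further alternative averaged all probes of a gene.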

Additional observations from a re-analysis of the deposited data

Results flagged for a closer look

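In 24 sets of 4 values (the ratio, the parthenote signal and the fertilised signal of each of the 8 probes), 1 stood apart. The fertilised pool of array 2 read 102 for HAND1, whereas the other 3 fertilised pools read 43.9 to 45.6. The gap was 0.971 of the whole range, which is past Dixon's critical value for 4 samples, and chance alone would set apart about 1 in 20 such sets. The parthenote pool of the same array was also the highest for HAND1, at 75.8.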

How the results depend on the processing

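Direction held for GATA2, TFAP2A and TFAP2C in all alternatives, although many of these left the mean ratio unchanged, so that it could not turn there. With normexp and median centring, means turned to -0.79 for KRT18, -0.21 for KRT8, -0.48 for GATA3, 0.015 for HAND1, -0.056 for CD3D, -0.24 for COL4A1, -0.45 for JUP, -0.30 for PKP2, -0.52 for POU5F1, -0.048 for SAV1, -0.0089 for STK3, -0.024 for TAGLN and -0.30 for TEAD1; 31610 probes, 5 of the 7 trophectoderm genes and 68 of the 91 genes of the other lists then passed, because the brightness-dependent shift stays in. KRT18 and GATA3 passed with median centring as lower in parthenotes. HAND1 also turned with normexp and loess (0.031). The main setting gave 8996 probes (46.2% higher in parthenotes), 3 genes and 29 genes. The methods' t-test, after Benjamini-Hochberg, gave 4435 probes, 1 gene (KRT18) and 18, the intensity trend 1 gene (KRT18), the repaired background 46 of the other genes, and the ratio of processed signals 21399 probes (65.0% higher) and 48 of the other genes. Without the array as replicate block (array pairing set aside), 16358 probes passed (68.0% higher). That setting also took the processed signals in place of the deposited log ratios, so that the part of the pairing alone cannot be read from it. Leaving out 1 replicate gave 1239 to 5736 probes, 0 to 2 trophectoderm genes and 4 to 19 of the other genes; without replicate 2 or replicate 4, where limma passed 0 of the 7 genes, 3 had an unadjusted p under 0.05. The lower counts go with fewer arrays. The value table, having the same values, tells nothing on stability. Of 113 values of the 8 probes under alternatives, 82 kept direction and side of the threshold, 13 lost the call, 13 gained it and 5 turned. The 113 include the value table and other settings that left the mean ratio unchanged, so the tally is no measure of stability.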
